A study of Mus musculus with 18 samples.

Results

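Genes that heart and skeletal muscle switch on under stretch or overload were followed across the infarcted mouse heart, in 10 members: Ankrd1, Ankrd2, Ankrd23, Fhl1, Fhl2, Xirp1, Xirp2, Csrp3, Acta1 and Nrap. They were listed by name as known muscle stress genes, with earlier results of these data known, and all 10 of 10 symbols were found among the 25230 of the count table. The libraries come from male C57BL/6J mice, 3 days after the left anterior descending coronary artery was tied off, so every heart compared here was infarcted. Atria, the infarcted part of the left ventricle (LV) and its non-infarcted part were each taken after treatment with PBS or with liraglutide, a drug that activates the receptor for glucagon-like peptide 1 (GLP-1), with 3 libraries for each of the 6 groups and 18 in all. The sources used here do not give the dose or schedule, and sham-operated hearts were not analysed here. The labels call the libraries of a group biological replicates, and p-values measure the spread between them. Libraries of different regions may come from the same hearts, which the labels do not say, and the main tests treat them as unpaired.

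Ankrd1 (CARP), Ankrd2 and Ankrd23 (DARP) form a family of ankyrin repeat proteins that bind the elastic N2A region of titin and can also enter the nucleus. Fhl1 and Fhl2 are proteins built of LIM domains that bind titin and signalling enzymes in the sarcomere. Csrp3 (muscle LIM protein) sits at the Z-disc, and its loss causes dilated cardiomyopathy. Xirp1 and Xirp2 carry Xin repeats that bind actin, and both lie at the intercalated disc, where Nrap also anchors actin filaments. Acta1 encodes skeletal muscle alpha-actin, a classic marker of the fetal gene programme in the loaded ventricle.

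Stretch signals reach such genes in part through serum response factor, which binds the CArG box, through TEAD factors, which bind the MCAT element, and through MEF2. The 250 bases before the RefSeq start sites (GRCm38.p6) were searched on both strands for MCAT (CATTCC) and, by name, for the CArG box and the MEF2 box. Of the members, 9 had an entry, with 13 start sites. Among all 32851 promoter windows of this length, 12.6% held MCAT, 1.47% a CArG box and 2.92% a MEF2 box; among the 13 of the members these numbers were 3, 4 and 2. The 5 windows printed here belong to members that differ between chambers (a pair of ankyrin genes, the pair of FHL genes and Acta1), and all hold a match. Ankrd23, Fhl1 and Fhl2 each have a further window that is not printed. Those of Ankrd23 and Fhl1 hold no match, and that of Fhl2 holds a CArG box. The windows of Ankrd2, Csrp3 and Nrap hold no match either. Capitals mark the matches, none of which overlaps another kind of motif.
Ankrd1 (chr19:36119845-36120094, minus strand): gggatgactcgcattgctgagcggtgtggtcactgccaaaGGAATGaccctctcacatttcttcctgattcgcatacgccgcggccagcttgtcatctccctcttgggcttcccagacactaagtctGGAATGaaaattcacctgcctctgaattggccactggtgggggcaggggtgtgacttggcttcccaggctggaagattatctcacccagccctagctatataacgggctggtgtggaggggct
Ankrd23 (chr1:36535740-36535989, minus strand): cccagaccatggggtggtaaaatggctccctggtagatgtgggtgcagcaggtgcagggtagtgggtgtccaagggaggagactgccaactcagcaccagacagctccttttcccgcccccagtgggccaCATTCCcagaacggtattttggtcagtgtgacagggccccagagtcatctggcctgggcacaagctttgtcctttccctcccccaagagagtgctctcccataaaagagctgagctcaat
Fhl1 (chrX:56779433-56779682, plus strand): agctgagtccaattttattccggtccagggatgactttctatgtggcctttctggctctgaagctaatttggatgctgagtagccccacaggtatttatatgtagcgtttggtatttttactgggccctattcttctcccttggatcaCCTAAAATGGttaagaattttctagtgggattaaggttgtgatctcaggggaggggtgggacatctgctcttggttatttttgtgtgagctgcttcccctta
Fhl2 (chr1:43196762-43197011, minus strand): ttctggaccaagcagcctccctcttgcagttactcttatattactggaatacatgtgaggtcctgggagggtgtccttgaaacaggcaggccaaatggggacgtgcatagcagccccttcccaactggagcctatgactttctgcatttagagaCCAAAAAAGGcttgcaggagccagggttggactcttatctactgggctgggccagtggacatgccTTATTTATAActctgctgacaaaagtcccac
Acta1 (chr8:123894776-123895025, minus strand): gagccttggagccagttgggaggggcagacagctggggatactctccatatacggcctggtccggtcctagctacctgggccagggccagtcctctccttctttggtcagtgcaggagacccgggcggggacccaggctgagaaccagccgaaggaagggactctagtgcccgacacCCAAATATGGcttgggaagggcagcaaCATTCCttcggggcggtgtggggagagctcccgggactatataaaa
Ankrd1 has MCAT at 2 places, both on the opposite strand, Ankrd23 has it at 1 place, and Acta1 has 1 MCAT and 1 CArG box. Fhl1 has 1 CArG box, and Fhl2 has 1 CArG box and 1 MEF2 box in the window shown. These matches describe the letters only, since no binding was measured.

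By the GENCODE annotation of GRCm38, Ankrd1 lies at chr19:36111961-36120099, Ankrd2 at chr19:42036000-42045110 and Nrap at chr19:56320035-56390037. Ankrd23 lies at chr1:36530188-36536883 and Fhl2 at chr1:43123074-43196984, with Fhl1 at chrX:56731787-56793346. Xirp1 lies at chr9:120013755-120023598, Xirp2 at chr2:67446002-67526614, Csrp3 at chr7:48830398-48848033 and Acta1 at chr8:123891769-123894751. Counts cover the exons of a gene together, without its isoforms.

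Library totals ran from 4280459 to 21853482 counts, and the members took 0.973 to 2.99% of each. Levels are CPM, that is, each count scaled to the library total, and fold changes come from edgeR with adjusted p over all genes tested and a threshold of 0.05. All 10 members passed the filter on low counts in each comparison. The summed atrial cardiomyocyte markers (Myl7, Myl4, Sln, Nppa and 4 others) were 39765 to 55835 CPM in the atria and 168 to 566 CPM in the LV, which fits the labelled chambers. Skeletal muscle markers summed to 26.4 to 51.5 CPM in the atria and 3.6 to 5.72 CPM in the LV, and their part in the members' levels was not tested. Of these markers, Myod1 was at 0 in 17 of 18 libraries, Myh4 in 16, Myh1 in 14 and Myh2 in 9. Atp2a1, Tnni2, Tnnt3, Pvalb, Actn3 and Mylpf were above 0 in every atrial library, with Atp2a1 at up to 28 CPM. In the atria with liraglutide, the ventricular light chain Myl2 was at 275, 8.3 and 924 CPM in replicates 1, 2 and 3, against 8.82, 5.94 and 2.08 CPM with PBS. Measured against Myl2 in non-infarcted LV, the level in replicates 1 and 3 was worth 2.72% and 9.13% of an LV library, and in replicate 2 0.0819%. The light chain Myl3, at 311, 68.2 and 650.01 CPM with liraglutide and 114, 53.9 and 68.8 CPM with PBS, gave 5.21%, 1.14% and 10.9% with liraglutide and 0.837 to 1.77% with PBS, so the size of the share depends on the gene used. One atrial PBS library, replicate 2, had adipocyte markers at 1024 CPM in sum, against 195 to 260 CPM in the other 5 atrial libraries and 581 to 953 CPM in the LV. The LV sum was almost all Fabp4, at 580 to 952 CPM. Adipoq, the adipocyte hormone, was 79.2 CPM in that atrial library, against at most 4.84 CPM in the other atria and 0.609 CPM in the LV. Bulk RNA cannot tell fewer cells of a type from less RNA per cell.

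**Figure D1:**
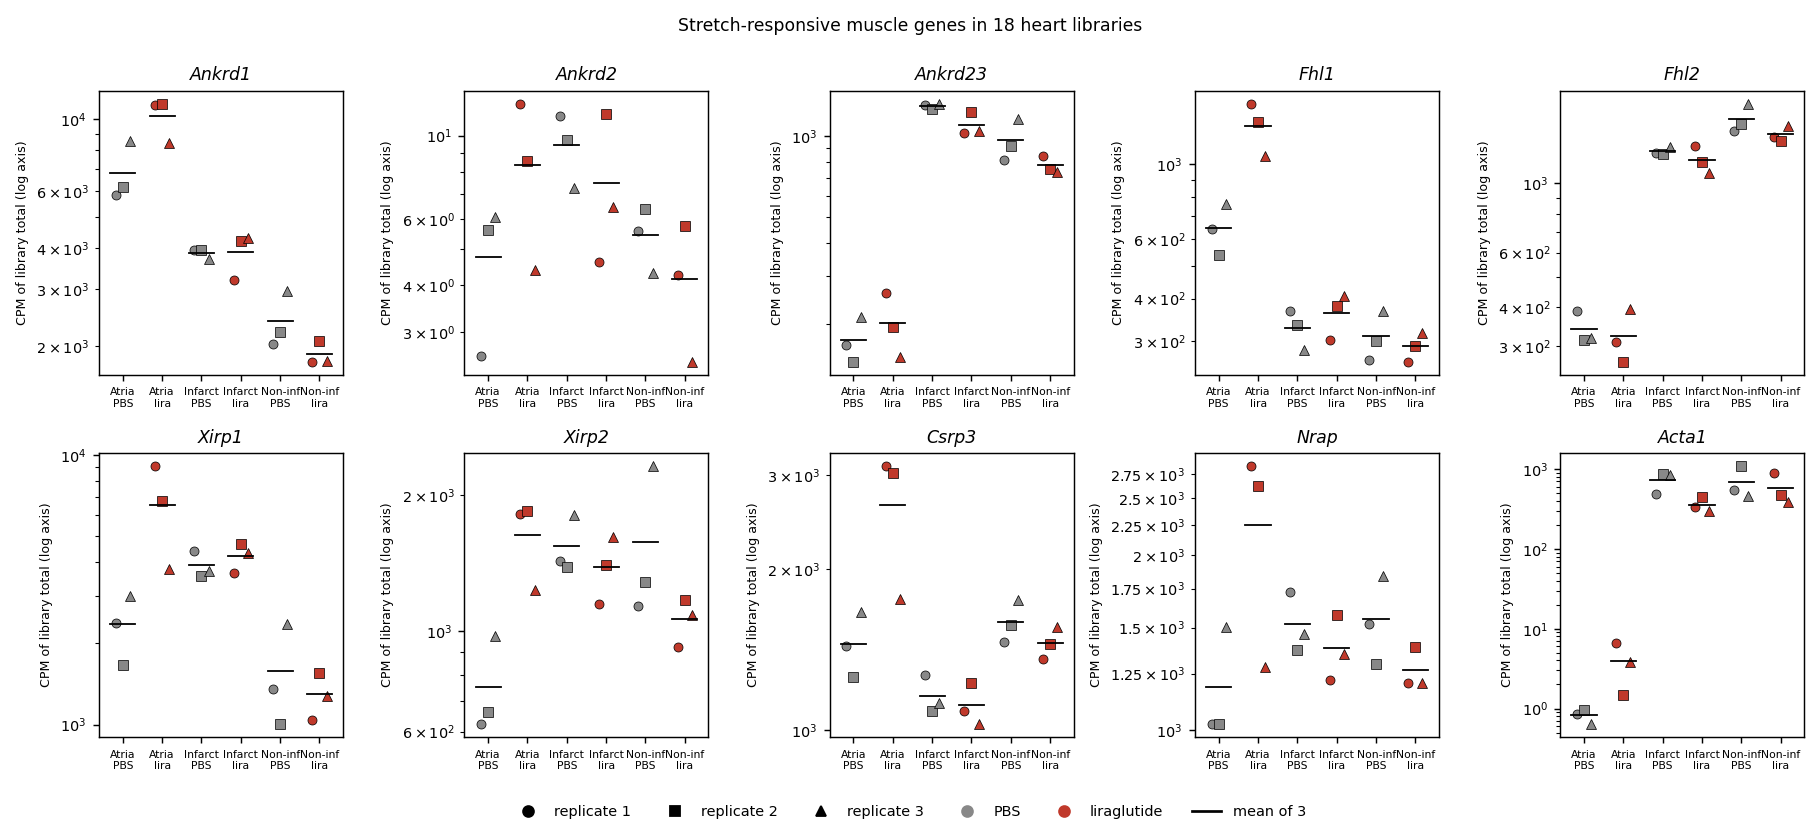
Level of each member in the 18 libraries, in CPM of the library total on a log axis, by region and treatment. Symbols mark replicates and horizontal lines the mean of 3; Acta1 does not exceed 6.64 CPM in any atrial library and is at 302 CPM or more in every LV library.

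Per kilobase of exon, Ankrd1 was the most abundant member in the atria, at 2369 ± 514 CPM per kilobase with PBS and 3526 ± 528 with liraglutide (SD, n = 3). It also led in infarcted LV, at 1341 ± 50.9 and 1354 ± 215 CPM per kilobase. In non-infarcted LV with PBS, Fhl2 came first at 849.6 ± 88.1 CPM per kilobase and Ankrd1 next at 832 ± 172, closer than their spread. Ankrd2 was the lowest member in the LV, at group means of 3.66 to 8.27 CPM per kilobase, and Acta1 the lowest in the atria, at 0.534 with PBS and 2.59 with liraglutide.

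Ankrd1, Ankrd23, Fhl1, Fhl2 and Acta1 differed between atria and non-infarcted LV in the same direction in both treatments. In PBS mice, 6 of the 10 members differed between atria and non-infarcted LV, 2 higher and 4 lower, where 51.8% of all genes tested did (26.1% higher, 25.7% lower). With liraglutide 8 differed, 5 higher and 3 lower (47.5% of all genes, 24.6% higher and 22.9% lower). The libraries of the 2 chambers did not overlap for 6 members with PBS and 8 with liraglutide, against 60.3% and 56.6% of all genes. Between atria and infarcted LV, 8 differed with PBS (2 higher, 6 lower; 52.3% of all genes, 26.2% higher and 26.1% lower) and 6 with liraglutide (3 higher, 3 lower; 43.2%, 22.1% higher and 21.2% lower). Without atrial liraglutide replicate 3 the last count was 9. The shares lie near or above those of all genes, so the counts say little of the members as a group, and the single genes carry the description.

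Ankrd1, the main ankyrin repeat protein of the heart, was highest in the atria. Its levels were 5818, 6157 and 8538 CPM in atria with PBS and 2029, 2209 and 2967 CPM in non-infarcted LV with PBS. Every atrial library lay above every LV library of either treatment. The change was 2.6-fold (log2 1.38, SE 0.22, adjusted p = 0.00121 in edgeR). With liraglutide it was 5.44-fold (log2 2.44, SE 0.17, adjusted p = 5.97e-06). Ankrd23 went the other way. It stood at 167, 144 and 212 CPM in atria with PBS and at 817, 918 and 1160.1 CPM in non-infarcted LV. No atrial library came near the LV, and the level was 6.08-fold lower (log2 -2.60, SE 0.22, adjusted p = 2.87e-05). Per kilobase of exon, the ratio of Ankrd1 to Ankrd23 within a library was thus 32.6 to 53.2 in the atria and 1.99 to 3.85 in the LV. Ankrd2, the skeletal muscle member of the family, was low everywhere, at 2.5 to 12.1 CPM, and its groups overlapped between atria and non-infarcted LV (log2 -0.35 with PBS, adjusted p = 0.335). In atria with PBS it lay below infarcted LV (log2 -1.08, SE 0.29, adjusted p = 0.00927), a call lost without infarct replicate 1 with PBS (adjusted p = 0.0529) and with all 18 libraries fitted (0.0575).

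The LIM proteins Fhl1 and Fhl2 were also opposed. Fhl1 stood at 643, 538 and 764 CPM in atria with PBS and at 264, 299.8 and 368 CPM in non-infarcted LV, 1.91-fold higher (log2 0.93, SE 0.19, adjusted p = 0.00344). The groups do not overlap. Fhl2 stood at 389.5, 315 and 318 CPM in the atria and at 1479, 1557 and 1799 CPM in non-infarcted LV, a 5.19-fold difference in the other direction (log2 -2.38, SE 0.14, adjusted p = 1.64e-07). Their ratio per kilobase was higher in every atrial library than in any LV library. Its median was 0.872 in atria with PBS and 2.48 with liraglutide, with 0.843 to 1.23 and 1.37 to 2.54 as ranges, and it did not exceed 0.192 in any LV library. With liraglutide Fhl1 was 4.55-fold higher in atria than in non-infarcted LV (log2 2.18, SE 0.19, adjusted p = 2.47e-05).

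Acta1, skeletal alpha-actin, was at the edge of detection in the atria with PBS. It had 11, 18 and 4 counts in the atrial PBS libraries, or 0.866, 0.955 and 0.639 CPM, and 546, 1087 and 460.5 CPM in non-infarcted LV. The difference was 871-fold (log2 -9.77, SE 0.51, adjusted p = 2.54e-05). Acta1 is nearly identical in coding sequence to Actc1, the cardiac alpha-actin, so a small part of its atrial counts may be misassigned, which was not tested. Of the 2 actins together, Acta1 made up 0.00692 to 0.0743% in the atria and 2.87 to 7.64% in the LV, per kilobase.

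Of the cytoskeletal members Xirp1, Xirp2, Csrp3 and Nrap, only Xirp2 passed between atria and non-infarcted LV with PBS. Xirp2 was at 623, 663 and 975 CPM in atria with PBS and at 1138, 1283 and 2319.7 CPM in non-infarcted LV, lower in the atria without overlap (log2 -1.21, SE 0.38, adjusted p = 0.0459). The call was lost without atrial PBS replicate 1 (adjusted p = 0.149) or 2 (0.145), with library totals in place of TMM factors (0.0674) and with no filter on low counts (0.0915). Xirp1 stood at 2387, 1665 and 2999.8 CPM against 1352, 1005 and 2369 CPM, and these groups overlap (log2 0.44, SE 0.44, adjusted p = 0.458). Csrp3 (log2 -0.27, SE 0.14, adjusted p = 0.132) and Nrap (log2 -0.52, SE 0.22, adjusted p = 0.0788) overlapped too. With the replicate number as a block, which pairs these libraries, Xirp1 passed as higher (adjusted p = 0.00212), and Csrp3 (0.0212) and Nrap (3.08e-04) as lower. Nrap passed with DESeq2 as well (adjusted p = 0.0118). Csrp3 and Nrap also passed without atrial PBS replicate 3 (adjusted p = 0.0351 and 0.0051), and Nrap without non-infarcted PBS replicate 2 (0.0375).

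With liraglutide, Xirp1, Xirp2 and Csrp3 were higher in the atria than in non-infarcted LV, and Nrap missed the threshold (log2 0.86, SE 0.33, adjusted p = 0.0679), though it passed with library totals (0.0327) and with all 18 libraries fitted (0.0187). Ankrd2 (log2 1.00, SE 0.45, adjusted p = 0.107) passed with DESeq2 (0.0281). Xirp1 was 5.17-fold higher (log2 2.37, SE 0.38, adjusted p = 0.00205). Xirp2 (log2 0.64, SE 0.21, adjusted p = 0.0346) and Csrp3 (log2 0.88, SE 0.26, adjusted p = 0.023) passed narrowly. Both calls were lost without atrial liraglutide replicate 1 (adjusted p = 0.112 and 0.0763) or 2 (0.105 and 0.0699), and without non-infarcted liraglutide replicate 1 (0.122 and 0.0779) or 2 (0.0624 and 0.0681). Xirp2 was lost also without non-infarcted liraglutide replicate 3 (0.0833) or with all 18 libraries fitted (0.0723), and without a filter both were lost (0.0544 and 0.0605). Leaving out atrial liraglutide replicate 3, the atrial library with most Myl2, brought Ankrd2 (adjusted p = 0.00139) and Nrap (1.18e-08) past the threshold as higher, so that all 10 members passed.

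**Figure D2:**
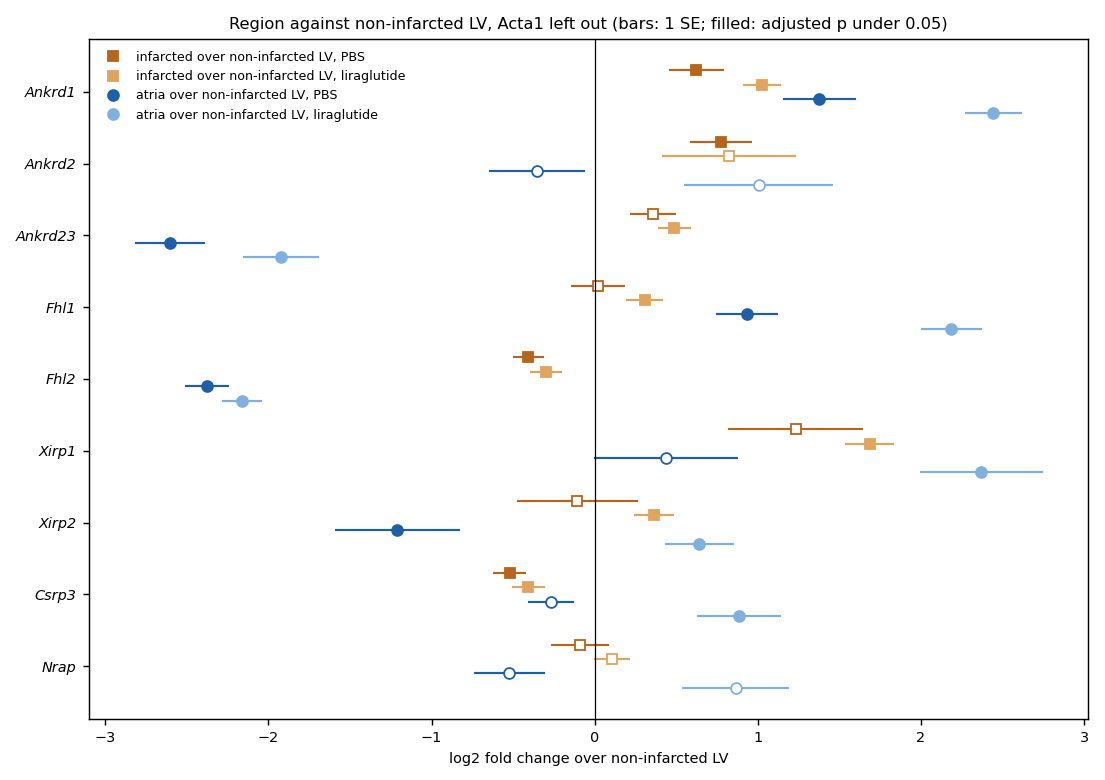
Log2 fold change of each member over non-infarcted LV, with 1 SE, for infarcted LV (squares) and atria (circles) in PBS and liraglutide mice. Filled symbols passed an adjusted p of 0.05; Ankrd23 and Fhl2 lie left of 0 in the atria and Ankrd1 and Fhl1 right of it, and Acta1 (-9.77 with PBS) is left out for scale.

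Within the ventricle, the infarcted part held more Ankrd1 and less Fhl2 and Csrp3. In PBS mice 4 members passed, 2 higher and 2 lower, where 47.4% of all genes did (25.7% higher, 21.7% lower). In liraglutide mice 7 passed, 5 higher and 2 lower (49.8% of all genes, 27.3% higher and 22.4% lower). The libraries did not overlap for 6 members with PBS and 5 with liraglutide, against 53.1% and 57.8% of all genes. Ankrd1 stood at 3959.8, 3949 and 3700.3 CPM in infarcted and at 2029, 2209 and 2967 CPM in non-infarcted LV with PBS. All 3 infarcted libraries lay above the others, by 1.54-fold (log2 0.62, SE 0.17, adjusted p = 0.0231). That call was lost with the replicate block (adjusted p = 0.0736), without infarct replicate 1 (0.0899) or 2 (0.0619), without non-infarcted replicate 2 (0.0501) and with no filter (0.0665). In liraglutide mice Ankrd1 was at 3196, 4211 and 4318 CPM against 1793, 2084 and 1803 CPM, 2.04-fold higher (log2 1.03, SE 0.12, adjusted p = 6.16e-06). No alternative ended this call.

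Ankrd2 was at 11.3, 9.75 and 7.24 CPM in infarcted and at 5.58, 6.4 and 4.32 CPM in non-infarcted LV with PBS (log2 0.78, SE 0.19, adjusted p = 0.00355). The groups do not overlap, and the call was lost only when all 18 libraries were fitted (adjusted p = 0.194). With liraglutide its libraries overlapped (log2 0.82, SE 0.41, adjusted p = 0.136), and it passed with the replicate block (0.00457), with DESeq2 (0.0364) and without infarct liraglutide replicate 1 (0.0311). Ankrd23 with PBS did not overlap but missed the threshold (log2 0.36, SE 0.14, adjusted p = 0.0649), and it passed with the block (0.00518), with DESeq2 (0.0213), with library totals (0.0115), with no filter (0.0283) and without non-infarcted PBS replicate 3 (1.35e-05). With liraglutide it passed (log2 0.49, SE 0.10, adjusted p = 9.15e-04), though not with all 18 libraries (0.0887).

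Xirp1, an actin-binding protein of the intercalated disc, had the largest change of any member in the infarct. It stood at 3660.4, 4667 and 4337 CPM in infarcted and at 1043, 1559 and 1279.5 CPM in non-infarcted LV with liraglutide, 3.22-fold higher (log2 1.69, SE 0.15, adjusted p = 3.14e-06). In PBS mice the levels were 4407, 3544 and 3724 CPM against 1352, 1005 and 2369 CPM. The groups again do not overlap, but non-infarcted replicate 3 was high and the test was missed (log2 1.23, SE 0.41, adjusted p = 0.074). Xirp1 passed with DESeq2 (adjusted p = 0.0176) and with all 18 libraries fitted (0.0257). That library was the highest of its group for 8 of the 10 members. Without it Xirp1 (log2 1.70, adjusted p = 1.83e-04), Xirp2 (log2 0.33, adjusted p = 0.0187) and Ankrd23 passed, and 7 members were called in place of 4. Xirp2 had been at log2 -0.11 with all libraries. The ratio of Xirp1 to Xirp2 per kilobase was 4.21 to 6.83 in infarcted and 1.61 to 2.72 in non-infarcted LV, with no overlap.

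Fhl2 and Csrp3 fell in the infarct in both treatments. Fhl2 was at 1254, 1239 and 1313 CPM against 1479, 1557 and 1799 CPM with PBS (log2 -0.41, SE 0.09, adjusted p = 0.00255), and at log2 -0.30 with liraglutide (SE 0.10, adjusted p = 0.0189). The liraglutide call was lost without non-infarcted replicate 3 (adjusted p = 0.0859). Csrp3 was at 1268, 1086 and 1122 CPM against 1463, 1574 and 1753 CPM with PBS (log2 -0.52, SE 0.10, adjusted p = 8.59e-04) and at log2 -0.41 with liraglutide (SE 0.10, adjusted p = 0.00385). Neither gene overlapped. With all 18 libraries fitted, Csrp3 missed the threshold (adjusted p = 0.0552 with PBS and 0.126 with liraglutide). Fhl1 (log2 0.31, adjusted p = 0.0389) and Xirp2 (log2 0.36, adjusted p = 0.0258) passed with liraglutide despite overlapping libraries, and each was lost when any of 4 single libraries was left out (adjusted p of 0.0997 to 0.17 and of 0.052 to 0.14) and with all 18 libraries fitted. Acta1 and Nrap passed in neither treatment.

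General cardiomyocyte RNA fell at the same time: of 12 sarcomere and cardiomyocyte genes 10 were lower in the infarct with PBS and none higher, among them Myh6 (log2 -0.49) and Tnnt2 (log2 -0.49). Fibroblast markers summed to 1719 to 2215 CPM in infarcted and 703 to 911 CPM in non-infarcted LV. The part of these shifts in the members' levels was not tested. To describe unequal change within a library, each library was also scaled to the 12 cardiomyocyte genes. This moves the median of all genes by 0.33 with PBS and 0.28 with liraglutide (log2). On this scale 6 members were higher and 0 lower with PBS (46.3% and 3.86% of all genes), and 7 higher and 0 lower with liraglutide (40.2% and 4.5%). Tested against 0 on this scale, and not against the shift, Ankrd1 (log2 0.99, SE 0.08, adjusted p = 4.12e-17) and Xirp1 (log2 1.61, SE 0.34, adjusted p = 0.0182) stood higher with PBS, and Fhl2 (log2 -0.04, SE 0.08) and Csrp3 (log2 -0.16, SE 0.08, adjusted p = 0.0741) did not pass. Csrp3 passed as lower on this scale without infarct PBS replicate 1 (adjusted p = 0.0378) or non-infarcted PBS replicate 1 (0.0308). Xirp1 was lost on this scale without any 1 of 4 libraries (adjusted p of 0.0717 to 0.0871).

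The atria scaled the same way gave 3 members higher and 3 lower with PBS (65.1% and 5.85% of all genes, whose median moves by 0.69) and 7 higher and 3 lower with liraglutide (51.9% and 7.63%, median 0.49). The higher ones with PBS were Ankrd1 (log2 2.07), Fhl1 (log2 1.62) and Csrp3. Tested against 0 and not against the shift, Csrp3 changed sign with the scale, to log2 0.41 (SE 0.11, adjusted p = 0.00145). That value lies below the median of 0.69 over all genes. The call was lost when the summed list set the scale (0.224). Xirp2, lower per library total, did not pass on this scale (log2 -0.50, SE 0.35, adjusted p = 0.264). The lower ones were Ankrd23, Fhl2 and Acta1 in both treatments. Ankrd23 was at log2 -1.92 (SE 0.14, adjusted p = 3.05e-15), Fhl2 at -1.69 (SE 0.12, adjusted p = 1.29e-16) and Acta1 at -9.08 (SE 0.64, adjusted p = 2.5e-04) with PBS, so the chamber difference of these 3 is also present on this scale. The scale itself is not even between chambers. Per library total, 9 of its 12 genes were lower in the atria with PBS and 0 higher. After scaling 4 were higher and 4 lower, among them Ryr2 (log2 0.70) and Mybpc3 (log2 -0.64).

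**Figure D3:**
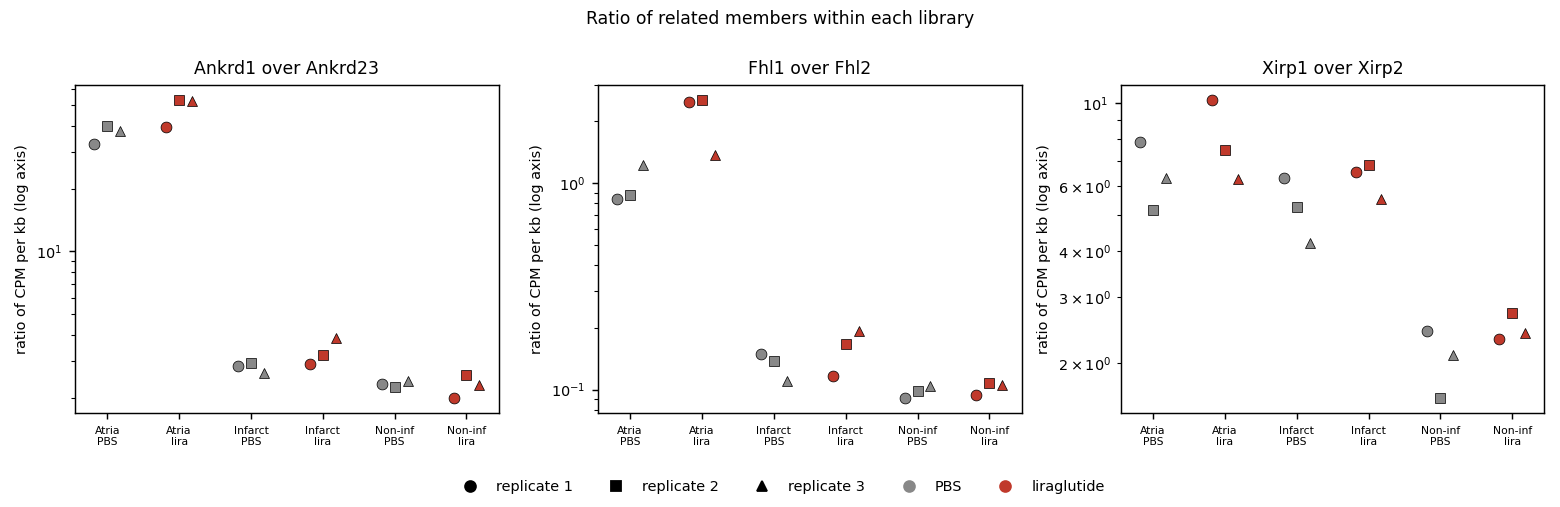
Ratio of related members within each library, from CPM per kilobase of exon, on log axes, with symbols for replicates. Ankrd1 over Ankrd23 and Fhl1 over Fhl2 are high in the atria only, and Xirp1 over Xirp2 is low in non-infarcted LV only.

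Liraglutide was compared with PBS in each region. In the atria 0 of 10 members passed, and 1 of 13530 genes did (0.00739%). All 10 fold changes were nevertheless above 0, with a median log2 of 1.02 against -0.0028 over all genes, and 7 members had an unadjusted p under 0.05, as did 928 genes in all. For 5 members the groups did not overlap, and in each of them the 3 treated libraries lay above the 3 controls. Among all genes 14.9% had groups that do not overlap, with both directions counted. A test that missed the threshold does not show that the levels were alike.

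Fhl1 stood at 1505, 1329 and 1059 CPM in atria with liraglutide and at 643, 538 and 764 CPM with PBS. Its 2.16-fold difference (log2 1.11, SE 0.21) had an adjusted p of 0.363. Xirp1 stood at 9064, 6747 and 3764 CPM against 2387, 1665 and 2999.8 CPM (log2 1.59, SE 0.40, adjusted p = 0.506). In both genes every treated library was above every control, by least in replicate 3. Xirp2 was at 1816, 1849.7 and 1232 CPM against 623, 663 and 975 CPM (log2 1.23, SE 0.26, adjusted p = 0.399), and Csrp3 at 3121, 3026 and 1762 CPM against 1436, 1257 and 1661 CPM (log2 0.98, SE 0.27, adjusted p = 0.512). Replicate 3 was the lowest treated library in these too, and the groups stayed apart. Nrap stood at 2839.8, 2628 and 1283 CPM against 1024, 1024 and 1501 CPM, where replicate 3 lay inside the control range (log2 1.05, SE 0.36, adjusted p = 0.624). Ankrd1 was at 10999, 11109 and 8418 CPM against 5818, 6157 and 8538 CPM (log2 0.68, SE 0.22, adjusted p = 0.552), with the same overlap. Acta1 was at 6.64, 1.47 and 3.8 CPM against 0.866, 0.955 and 0.639 CPM (log2 2.31, SE 0.55, adjusted p = 0.422). Ankrd2 (log2 0.95, SE 0.47), Ankrd23 (log2 0.33, SE 0.26) and Fhl2 (log2 0.02, SE 0.14) overlapped.

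The 2 atrial libraries with raised Myl2, liraglutide replicates 1 and 3, stood at opposite ends of their group. Replicate 3, which had the most, was the lowest of its group for 8 of 10 members, and replicate 1 was the highest for 7. Replicate 2, with Myl2 at the level of the controls, stood close to replicate 1 in Ankrd1, Xirp2, Csrp3 and Nrap. Fibroblast markers summed to 755, 691 and 1423 CPM in replicates 1, 2 and 3 with liraglutide, and to 1201, 1224.5 and 811 CPM with PBS. Neutrophil and monocyte markers summed to 227, 148 and 635 CPM with liraglutide, and to 352, 961 and 669 CPM with PBS. The part of these cell types in the members' atrial levels was not tested. At the share that Myl2 gives, ventricular RNA would carry 2.05% of the measured Ankrd1 in liraglutide replicate 3, 2.49% of Fhl1, 3.14% of Xirp1, 7.87% of Xirp2, 7.54% of Csrp3 and 9.02% of Nrap. For 2 members that are high in the LV it would carry more, 47.2% of Ankrd23 and 33.3% of Fhl2. For Acta1 the share would give 53.1 CPM in replicate 3, where 3.8 CPM were measured, and 15.8 CPM in replicate 1, where 6.64 CPM were. Without both libraries the fold changes of Fhl1 (log2 1.18), Xirp1 (1.66), Xirp2 (1.44), Csrp3 (1.21), Nrap (1.29) and Ankrd1 (0.84) were larger than with all 3, while Acta1 stood at 0.94 and Fhl2 at -0.20. That fit has 1 treated library, whose spread is taken from the controls, and called 0 members.

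Which members pass in the atria depends on the test and on single libraries. Without liraglutide replicate 3, 4 members passed, Fhl1 (adjusted p = 0.0183), Csrp3 (0.0143), Nrap (0.0286) and Xirp2 (0.0352). Without it and PBS replicate 2, the library with high adipocyte markers, an alternative chosen after seeing the data, 5 passed: these and Xirp1 (0.0103). Leaving out any other single library gave 0 calls. DESeq2 called 4 with all libraries, Fhl1 (adjusted p = 1.17e-04), Xirp2 (2.33e-04), Csrp3 (0.00931) and Acta1 (0.00938), and edgeR on all 18 libraries called Fhl1 (0.023) and Csrp3 (0.0461).

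**Figure D4:**
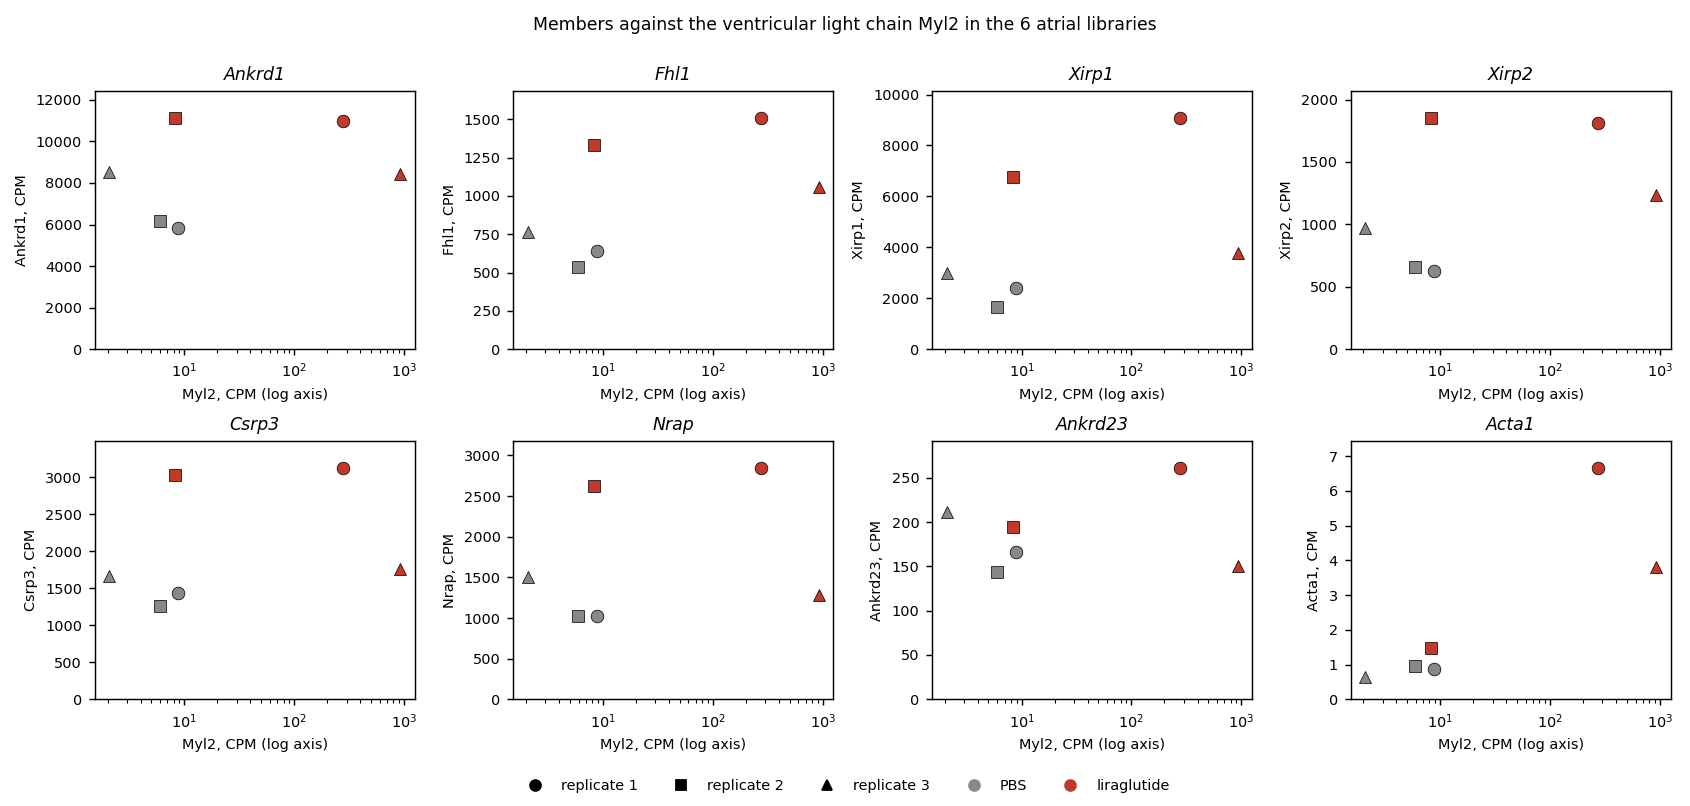
Level of 8 members (CPM, from 0) against the ventricular light chain Myl2 (CPM, log axis) in the 6 atrial libraries, with symbols for replicates and colours for treatment. The treated library at 8.3 CPM of Myl2 lies beside the one at 275 CPM for Ankrd1, Xirp2, Csrp3 and Nrap, and the one at 924 CPM is the lowest of the 3 in these panels.

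In the LV, liraglutide libraries did not stand above the controls. In infarcted LV 0 of 10 members passed (0% of all genes), with 681 genes at an unadjusted p under 0.05. Acta1 was at 331, 448 and 302 CPM with liraglutide and at 482, 867 and 850.1 CPM with PBS. All 3 treated libraries were below all controls (log2 -0.998, SE 0.29, adjusted p = 0.851). Ankrd23 was the other gene whose groups did not overlap (log2 -0.21, SE 0.10, adjusted p = 0.941); 9.69% of all genes were like that. In non-infarcted LV 0 of 10 passed (0% of all genes, with 561 at an unadjusted p under 0.05), the median log2 was -0.32, all 10 lay below 0, and the groups of all members overlapped (8.96% of all genes did not). The largest was Xirp2 (log2 -0.61, SE 0.36, adjusted p = 0.999), whose PBS group holds the high replicate 3.

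**Figure D5:**
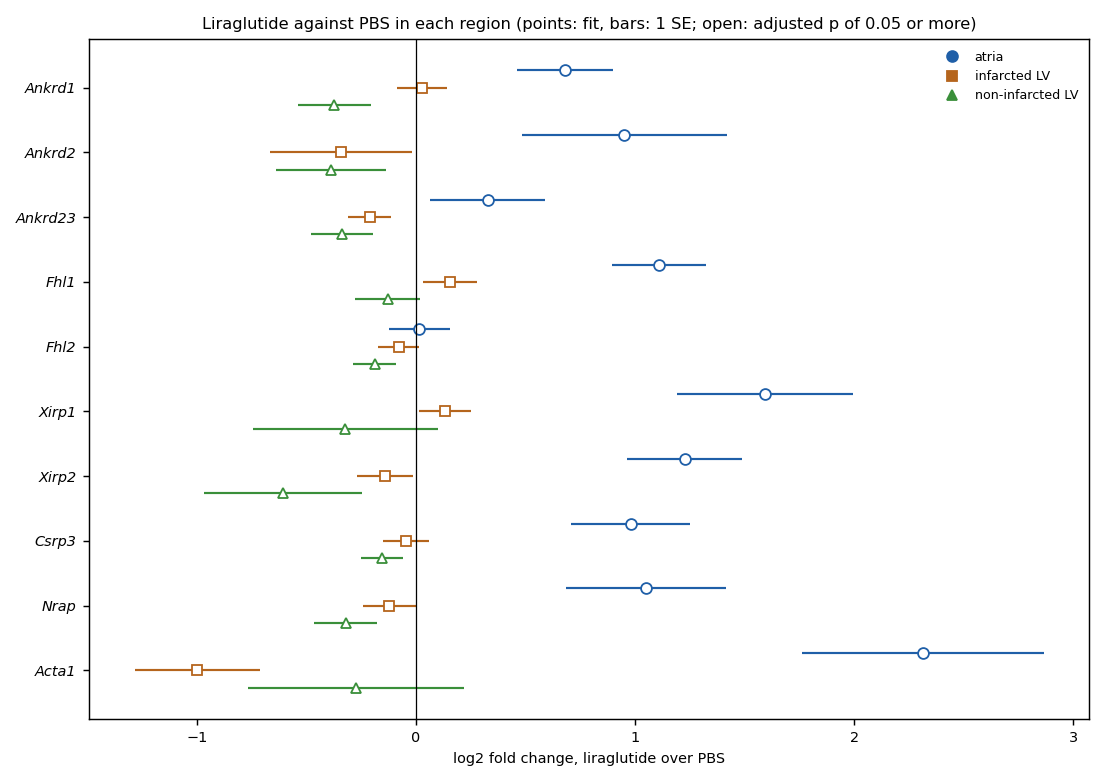
Log2 fold change of liraglutide over PBS for each member in atria, infarcted LV and non-infarcted LV, with 1 SE, from fits of the 6 libraries of each region. All symbols are open because none passed an adjusted p of 0.05; the atrial points lie right of 0 and those of non-infarcted LV left of it.

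The difference of the liraglutide effect between regions was itself tested in a fit of all 18 libraries. Between atria and non-infarcted LV all 10 differences were above 0, with a median log2 of 1.31, but 0 passed (0% of all genes, with 750 at an unadjusted p under 0.05). Of the members 9 had an unadjusted p under 0.05, the smallest being Fhl1 (log2 1.26, SE 0.28, adjusted p = 0.41) and Xirp2 (log2 1.85, SE 0.42, adjusted p = 0.41). Without atrial liraglutide replicate 3, 5 members passed, Csrp3 (adjusted p = 4.14e-04), Nrap (0.00962), Fhl1 (0.018), Ankrd1 (0.045) and Xirp2 (0.045). DESeq2 called 5 with all libraries. Between infarcted and non-infarcted LV the median was log2 0.17, and 0 passed (0% of all genes, with 174 at an unadjusted p under 0.05).

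Other genes of the same pathways were counted from lists, in the same fits. Of 30 partners of the Z-disc, titin and filaments, 4 were higher and 18 lower in infarcted than in non-infarcted LV with PBS, with a median log2 of -0.40 (25.7% and 21.7% of all genes, median -0.02). Per cardiomyocyte RNA the list had 9 higher and 6 lower (46.3% and 3.86% of all genes), with a median of -0.04, where all genes have 0.33. Lmod2, which caps and lengthens thin filaments, fell (log2 -1.09, adjusted p = 2.61e-07), and Pdlim7 rose (log2 1.04, adjusted p = 3e-07). With liraglutide 7 were higher and 18 lower (27.3% and 22.4% of all genes), or 8 and 6 per cardiomyocyte RNA (40.2% and 4.5%). Flnc, filamin C, was among the 7 (log2 1.73, adjusted p = 2.24e-07), beside Xirp1, a binding partner. Of 28 tested genes of the load response through serum response factor, YAP and focal adhesions, 14 were higher and 6 lower with PBS, and 16 and 4 with liraglutide. Per cardiomyocyte RNA these were 20 and 0 with PBS (46.3% and 3.86% of all genes) and 21 and 0 with liraglutide (40.2% and 4.5%). Per library total Zyx, zyxin of focal adhesions, rose in both treatments (log2 0.90 and 0.84), as did the stretch-activated channel Piezo1 (log2 0.96 and 0.88). Fibroblast markers rose in the infarct as well, and their part in these list counts was not tested. In atria against non-infarcted LV with PBS, 11 load response genes were higher, among them Actn1 (log2 1.44), and 4 lower, among them Cited2 (log2 -1.30). Of the Z-disc list 6 were higher and 15 lower (26.1% and 25.7% of all genes), with Myot, myotilin of the Z-disc, among those that fell (log2 -5.53, adjusted p = 2.82e-09). Per cardiomyocyte RNA the Z-disc list had 17 higher and 4 lower, with a median of log2 0.44 in place of -0.24. The load response list had 24 higher and 1 lower, with a median of 0.94. On this scale 65.1% of all genes were higher and 5.85% lower, with a median of 0.69, above that of the Z-disc list. Between liraglutide and PBS no gene of these lists passed in any region. In the atria 25 of 29 tested Z-disc genes and 18 of 28 load response genes had fold changes above 0, with medians of log2 0.29 and 0.11.

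Members differed in which other genes followed them across the 18 libraries, as a description over log2(CPM + 1) of 10498 genes, with region shared by all. Fhl2 was most like Ckm, muscle creatine kinase (r = 0.993), Hadh and Ckmt2. Ankrd23 was most like the small heat shock protein Hspb6 (r = 0.986), and Acta1 like Smyd2 (r = 0.988). Ankrd1 was most like Magi3 (r = 0.972), Fhl1 like Tiam2 (r = 0.976) and Xirp1 like 1110002E22Rik, Klhl41 and Flnc (r = 0.964, 0.962 and 0.959). Nrap was most like Cryab (r = 0.900), Csrp3 like Prkag3 (r = 0.948), and Ankrd2 like Dgkd (r = 0.792). Between members, Fhl2 and Acta1 ran together (r = 0.970), as did Ankrd23 and Acta1 (r = 0.962), and Fhl1 ran with Ankrd1 (r = 0.922) and against Fhl2 (r = -0.906). The 2 sides follow the chambers.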

How the data were processed

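The members and lists were chosen with earlier results of these data known. Each library is polyadenylated RNA from TRIzol extracts, prepared with a stranded TruSeq kit, per the labels' protocols. The values deposited by the authors are unnormalized counts for each gene symbol. The submitters' processing notes name STAR 2.7.9a, DESeq2 and the mm10 build. How reads were assigned to genes, and whether by strand, is not given in the sources used here. Reads of overlapping genes (Xirp1 and Cx3cr1, Nrap and Habp2, Acta1 and Gm20388, Ankrd23 and Gm42417) may therefore be split in an unknown way. Gene lengths and positions came from GENCODE on GRCm38, and promoters from RefSeq.

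Every pair of groups was fitted separately, on 6 libraries, using edgeR 4.0.16 under R 4.3.3 (filterByExpr, TMM, robust quasi-likelihood F test, Benjamini-Hochberg over all genes tested, 0.05); contrasts of effects used all 18. The SE was taken as the size of the log2 fold change divided by the root of F. The fit was tested on simulated data in which all libraries of a group shared a mean for each gene. For liraglutide against PBS in the atria, 66% of true changes of log2 1 and 94.8% of log2 2 were recovered. For infarcted against non-infarcted LV with PBS these were 79.4% and 99%. False calls numbered 10 and 19. A floor of 3 counts is 0.137 to 0.701 CPM. Replicate numbers were taken to pair libraries where the deviations of all 3 same-numbered pairs correlated above 0.1 (infarcted with non-infarcted LV, r 0.174 to 0.214 with PBS and 0.165 to 0.205 with liraglutide; atria with non-infarcted LV with PBS, r 0.122 to 0.239); the labels do not say that a number marks 1 mouse. Libraries of a group differed beyond sampling noise (chi-square per degree of freedom 2.55 to 59). The genes named are all 10 members, Myl2 and Myl3, up to 4 passing genes of each list with the smallest p, and genes from the 3 most like each member; the result for Xirp2 is not reported here. Alternatives were DESeq2 1.42.0, RLE factors, library totals, other filters, all 18 libraries, the replicate block, each library left out, and 2 atrial libraries left out together.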

Additional observations from a re-analysis of the deposited data

How the results depend on the processing

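Of 1850 refits of single members, 1678 kept their direction and their side of the threshold, 74 gained a call, 56 lost one and 42 changed direction. In atria with liraglutide against PBS, the count of members called was 0 with RLE factors, library totals, both other filters and the replicate block, 4 with DESeq2, 2 with all 18 libraries, 0 to 4 with 1 library left out, 0 without liraglutide replicates 1 and 3, and 5 in the alternative chosen after seeing the data. For infarcted against non-infarcted LV with PBS, single libraries left out gave 3 to 7, and with liraglutide all 18 libraries gave 3. The contrast of effects between atria and non-infarcted LV gave 5 with DESeq2 and 0 to 5 with 1 library left out.

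For both contrasts the block was the number in the sample descriptions. That number joins the libraries of a treatment that share a replicate number across regions, and it gave 0 calls. The replicate block, with pairing as in the methods, gave 0 calls in the 3 liraglutide comparisons, whose libraries share only a number (r from -0.392 to 0.2). Not every library matched its own number best there. The same holds for atria against infarcted LV and, with liraglutide, against non-infarcted LV, with r from -0.0954 to 0.159. The replicate block gave 4 and 8 members for infarcted against non-infarcted LV (PBS, liraglutide), 9 and 9 for atria against non-infarcted LV, and 9 and 6 for atria against infarcted LV. Beyond the changes named in the results, it added Ankrd2 (adjusted p = 0.0135, atria against non-infarcted LV, liraglutide) and Csrp3 (0.0434, atria against infarcted LV, PBS), and it changed no other call of a member.

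Directions reversed only for changes that had not passed, as log2 values. With liraglutide against PBS in the atria, Fhl2 was -0.0725 with library totals, -0.203 without liraglutide replicates 1 and 3, -0.149 in the added alternative and -0.0732 to 0.12 with 1 library left out. Leaving out 1 library in infarcted LV gave Ankrd1 -0.0566 to 0.16, Fhl2 -0.15 to 2.82e-04 and Csrp3 -0.148 to 0.0419. In non-infarcted LV it gave Fhl1 -0.243 to 0.0525, Xirp1 -0.58 to 0.147 and Acta1 -0.693 to 0.162. For infarcted against non-infarcted LV with PBS, it gave Fhl1 -0.0994 to 0.201, Xirp2 -0.311 to 0.328, Acta1 -0.177 to 0.451 and Nrap -0.234 to 0.0853, and with liraglutide Nrap -0.0243 to 0.197. Ankrd2 in atria against infarcted LV with liraglutide ran from -0.197 to 0.716. The contrast between infarcted and non-infarcted LV gave Ankrd2 -0.42 to 0.382, Ankrd23 -0.0544 to 0.252, Fhl2 -0.00276 to 0.195 and Xirp1 -7.4e-04 to 0.721. Per cardiomyocyte RNA, Fhl2 was 0.0117 with the sum of the list and -0.0872 to 0.0104 with 1 library left out (PBS), -0.0449 to 0.0575 with liraglutide, Acta1 -0.652 to 0.00266 with liraglutide, and Nrap in the atria with PBS -0.078 with the sum and -0.0237 to 0.2997 with 1 library left out. The cause of these changes was not tested. Low counts limit the precision for Ankrd2 and for Acta1 in the atria.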
